A study of Mus musculus with 23 samples.

Results

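Cga-positive pituitary endocrine cells made up 53 of the 249715 barcodes that passed the filter on depth, out of 265025 barcodes in all. A barcode passed with at least 500 genes, at least 800 UMIs (unique molecular identifiers, 1 per captured RNA molecule) and at most 10% of its UMIs from mitochondrial genes. A passing barcode was taken as a Cga-positive cell when it held at least 3 UMIs of Cga and a UMI of at least 2 of Tshb, Chga, Chgb, Scg2, Resp18 and Cck. In addition, the summed UMIs of these 7 endocrine genes had to exceed those of 6 genes of other brain cells: Aqp4 and Gja1 (astrocytes), Cldn5 and Flt1 (endothelial cells), and Cx3cr1 and P2ry12 (microglia). Those values chose the cells, so the levels of the 13 genes, and of every other gene set against other cells, are given as a description with no test. The bin and the treatment were not part of the rule. Barcodes with endothelial RNA were far more frequent in the high ATV bins, however, so the condition on the 6 genes is not independent of the bin.

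The cells came from mouse brains collected 24 hours after injection into the tail vein of an antibody that carried the red fluorescent dye AF647 (45 mg/kg), and the study asked which brain cells take such antibodies up. ATV-TfR, an antibody transport vehicle that binds the transferrin receptor (gene Tfrc), is labelled DNP02_hIgG1_LALAPG_ATV35.23.2 and was given to TfR mu/hu KI mice, in which the receptor gene is a mouse/human knock-in. The second vehicle, ATV-CD98hc, targets the product of Slc3a2, is labelled DNP02 LALAPG LLB2-10-8 monovalent and was given to CD98hc mu/hu KI mice, with the same kind of knock-in of CD98hc. The control IgG, DNP02_hIgG1_LALAPG, was given to C57BL/6 mice (C57BL/6J in the series' design), the background strain of both knock-ins, so treatment and genotype cannot be told apart. All 3 antibodies carry the LALAPG change, which is known to weaken binding to Fc gamma receptors. The mice were 12 weeks old, 3.3 months in the sample labels. Live cells were sorted by AF647 into a negative, a low, a medium and a high bin, with the positive gates set as tertiles of the positive ATV-TfR cells. Each treatment had 2 pools, and each pool joined the dissociated cells of 1 male and 1 female mouse, so that the bins of 1 pool share their animals. The control IgG negative bin had only its replicate 2, which left 23 libraries in 12 groups. Perfused brain without olfactory bulbs, cerebellum, pons and medulla was the only tissue named, and the labels do not mention the pituitary.

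Cga encodes the alpha subunit that thyrotropin, luteinizing hormone and follicle-stimulating hormone share, and Tshb, Lhb and Fshb encode the beta subunits that set each hormone apart. Endocrine cells store such hormones with granins (Chga, Chgb, Scg2) in dense-core granules and release them on a signal. The pituitary and the pars tuberalis, the sleeve of endocrine tissue around its stalk at the base of the brain, lie outside the blood-brain barrier and are supplied by leaky, fenestrated capillaries. Thyrotrophs of the pars tuberalis are known to carry the melatonin receptor Mtnr1a, to lack the receptor for thyrotropin-releasing hormone (Trhr) and to make thyrotropin without the factor Pou1f1 that thyrotrophs of the main gland use.

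The upstream sequences of the genes for both thyrotropin subunits are shown because the cells were chosen by Cga, and Tshb was the only beta subunit gene found in them. Cga (ENSMUSG00000028298) is a protein-coding gene on the plus strand of chr4:34893779-34907370 in GRCm38, and Tshb (ENSMUSG00000027857) lies on the minus strand of chr3:102775465-102782718. The 250 bases before each RefSeq transcription start (GRCm38.p6, chr4:34893529-34893778 plus strand and chr3:102782715-102782964 minus strand) read as follows, 5′ to 3′, with motif matches in capitals.
Cga: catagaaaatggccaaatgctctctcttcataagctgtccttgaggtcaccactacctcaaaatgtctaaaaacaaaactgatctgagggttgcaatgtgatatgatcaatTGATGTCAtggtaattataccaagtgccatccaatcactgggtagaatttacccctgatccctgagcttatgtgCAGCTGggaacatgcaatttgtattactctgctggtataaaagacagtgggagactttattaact
Tshb: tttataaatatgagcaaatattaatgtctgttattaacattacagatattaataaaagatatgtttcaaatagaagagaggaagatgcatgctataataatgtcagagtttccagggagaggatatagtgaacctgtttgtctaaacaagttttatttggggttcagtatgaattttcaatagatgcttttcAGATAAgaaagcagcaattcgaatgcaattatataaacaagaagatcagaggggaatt

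Both strands were searched for 4 motifs: TGATGTCA (a form of the cyclic AMP response element), AGATAA (bound by GATA factors), TAATCC (bound by bicoid-type homeodomain factors) and CAGCTG (an E-box). The Cga window held TGATGTCA from 139 to 132 bases before the start and CAGCTG from 65 to 60 bases before it. The Tshb window held AGATAA from 58 to 53 bases before its start. Of 32851 RefSeq mouse promoter windows of this length, 2.93% held TGATGTCA, 9.99% AGATAA, 6.25% TAATCC and 13.001% CAGCTG. No match overlapped another, and TAATCC was in neither window. A match is a description of these letters and no evidence of binding.

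The 53 cells were well covered: UMIs per cell ran from 2056 through a median of 6435 to 13670, and genes per cell from 1164 through 2756 to 5174. Median depth over all passing barcodes was 2190 to 4985 UMIs per library, and libraries held 526 to 20570 passing barcodes and 1861238 to 90307818 UMIs. The mitochondrial share of the cells was 0.483% at the lowest, 4.22% at the median and 9.89% at the highest. These cells held 4942 of the Cga UMIs in passing barcodes and all others held 190, so that 96.3% of Cga UMIs lay in them. The rule's minimum of 3 Cga UMIs fixes part of this share, and it differed between libraries. In ATV-TfR high replicate 1 the cells held 1519 Cga UMIs and 61 other barcodes held 94. In ATV-TfR high replicate 2 the cells held only 28, and 38 other barcodes held 39. Among libraries, 15335 passing barcodes (6.14%) had a barcode sequence that another library also used. This held for 4 of the 53 cells, and none of their twins had a Cga UMI.

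Near the limits of the rule, 7 of the cells had 3 to 5 UMIs of Cga, while 5 barcodes with 2 and 2 barcodes with 1 met all other conditions. Another 10 passing barcodes with 3 or more Cga UMIs were not taken. In 9 of these, with 3 to 7 Cga UMIs, the 6 genes of other cells had the higher sum. All 9 held UMIs of Cldn5 and Flt1 and were in ATV-TfR high replicate 1 or ATV-CD98hc high replicate 2. Among barcodes that met the other conditions, this one thus left out only barcodes of high ATV libraries. The remaining barcode, of ATV-TfR low replicate 1, had 20 Cga UMIs and 0 UMIs of the other 6 endocrine genes and of the 6 genes of other cells. A further 12 barcodes met the gene conditions but exceeded the mitochondrial limit, at 11.0% to 27.4%.

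UMIs of the 6 genes of other brain cells were present in a minority of the Cga-positive cells, all of them from ATV libraries, and in the cells that held most of them other endothelial markers were present too. Of the 53 cells, 37 had no UMI of the 6 genes of other cells, 9 had 1 to 8, and 7 had 20 to 69. The 7 were 3 of the 12 cells of ATV-TfR high replicate 1 and 4 of the 11 cells of ATV-CD98hc high replicate 2. Their summed UMIs of 10 endothelial markers ranged from 72.2 through a median of 163 to 239 per 10000 UMIs, against 0 at the median and 4.24 at the highest in the 37 cells. The split fixes part of this contrast, because Cldn5 and Flt1 are among both the 6 genes and the 10 markers. The 8 markers that the split did not use ranged from 40.3 through 83.1 to 188 per 10000 in the 7 cells, against 0 at the median and 4.24 at the highest in the 37. Astrocyte, microglia and border macrophage markers stayed under 7 per 10000 in the 7. One cell of ATV-TfR high replicate 1, with 4 UMIs of the 6 genes, instead held microglia markers at 77.7 and border macrophage markers at 10.9 per 10000, among them 24 UMIs of C1qb and 15 of C1qa. All 24 control IgG cells had 0 UMIs of the 6 genes. Endothelial-marker barcodes were those with at least 3 UMIs of Cldn5 plus Flt1 and under 3 of Cga. In the high ATV libraries that held these 7 cells, 18644 of 19551 and 12746 of 13372 passing barcodes were of this kind. In the control IgG libraries with Cga-positive cells, 1122 of 2247 and 32 of 688 were. Scrublet, a doublet caller, marked 1 of the 53 cells, which had no UMI of the 6 genes, and none of the 7. In both libraries that held the 7, its own threshold marked 0.00511% and 0% of barcodes, so percentile 94 of the score was used. Whether it can mark doublets with so rare a cell type was not tested. Pool and receptor values are therefore given for all cells and for the 37.

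**Figure D1:**
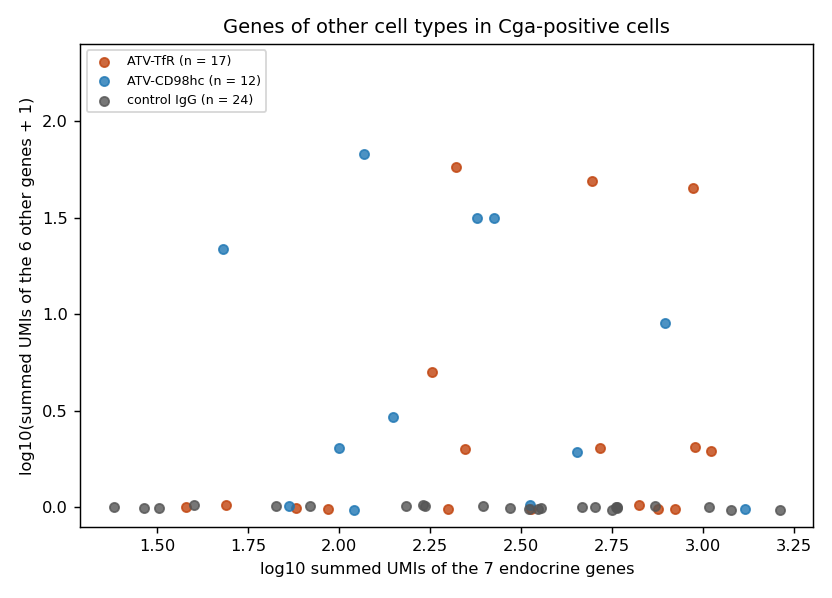
Summed UMIs of the 7 endocrine genes (x axis, log10) and of the 6 genes of astrocytes, endothelial cells and microglia (y axis, log10 of the sum plus 1) in each of the 53 Cga-positive cells, coloured by treatment with slight vertical scatter. The 24 control IgG cells lie at 0 on the y axis, and the 7 cells with 20 to 69 UMIs of the 6 genes are all from ATV libraries.

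All 53 Cga-positive cells lay in bins with AF647 signal, mostly in the high bin for the ATVs and in the low and medium bins for the control IgG. None of the 37965 passing barcodes of the 5 negative libraries was one, which allows a share of up to 0.00790% by the floor of 3 counts. By treatment the negative libraries allow up to 0.0192% for ATV-TfR, 0.0295% for ATV-CD98hc and 0.0247% for control IgG, above the 0.00953% measured in both ATV-TfR medium libraries together. The control IgG pool with all 24 cells had no negative library, so its cells could fall only into bins with AF647 signal, and the control negative library came from the pool without any such cell. Of the 29 cells from both ATVs, 25 lay in the high bin and 4 in the medium bin. Without the cells that held UMIs of the 6 genes these were 11 and 2. Of the 24 cells from control IgG, 8 lay in the low bin, 16 in the medium bin and none in the high bin. The high control IgG bin held 1251 barcodes, which allows a share of up to 0.240%. Only 8 of the 23 libraries held any of the cells.

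For ATV-TfR, high replicate 1 held 12 of 19551 barcodes, a share of 0.0614% (95% exact binomial interval 0.0317% to 0.107%). High replicate 2 held 2 of 17611, or 0.0114% (0.00138% to 0.0410%). The medium libraries held 1 of 16036 in replicate 1 and 2 of 15442 in replicate 2, and both low and both negative libraries held 0. The high bin averaged 0.0364% ± 0.0354 (SD, n = 2) and the medium bin 0.00959% ± 0.00475 (SD, n = 2). Replicate 1 thus went from 0 through 1 to 12 cells over the low, medium and high bins, while replicate 2 had the same count in the medium and high bins. Intervals and floors cover counting error only.

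For ATV-CD98hc, high replicate 2 held 11 of 13372 barcodes, or 0.0823% (0.0411% to 0.147%), and medium replicate 1 held 1 of 17790. High replicate 1 held 0 of 10431, which allows up to 0.0288%, and the other 5 libraries also held 0. The high bin averaged 0.0411% ± 0.0582 (SD, n = 2), so its value came from 1 of the 2 pools.

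For control IgG, low replicate 1 held 8 of 2247 barcodes, or 0.356% (0.154% to 0.700%), and medium replicate 1 held 16 of 688, or 2.33% (1.33% to 3.75%). High replicate 1 held 0 of 526, with an exact upper bound of 0.699%. All 17562 barcodes of control IgG replicate 2 were without a Cga-positive cell, so the cells of this treatment came from 1 pool. The low bin averaged 0.178% ± 0.252 and the medium bin 1.16% ± 1.64 (SD, n = 2 each). The share of control IgG medium replicate 1 was above that of every ATV library. It has another denominator: per the labels about 1% of live control IgG cells were AF647 positive, against about 30% for ATV-TfR and 20% for ATV-CD98hc, so a share of a control IgG bin is a share of far fewer brain cells.

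**Figure D2:**
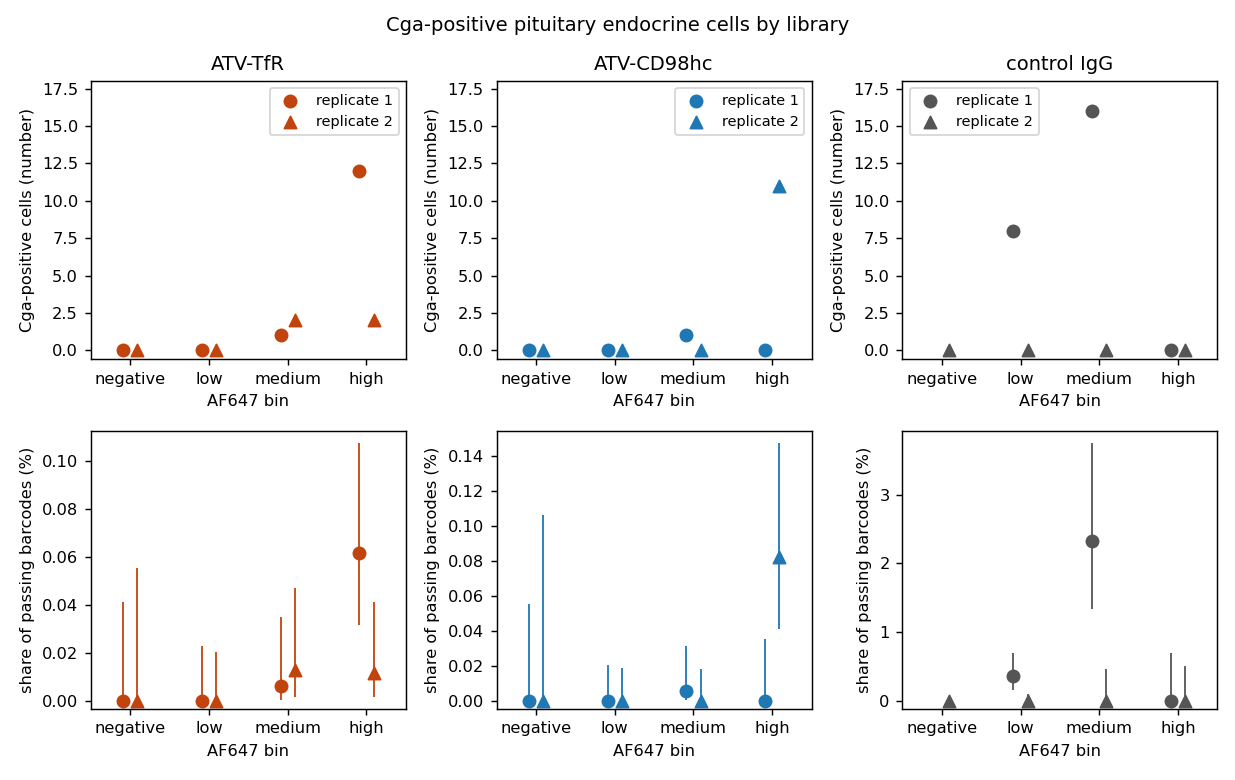
Number of Cga-positive cells (upper row) and their share of passing barcodes in percent (lower row, axis scaled for each treatment) in the 4 AF647 bins of ATV-TfR, ATV-CD98hc and control IgG, 1 point per library, with 95% exact binomial intervals as lines. The ATV cells lie in the medium and high bins, up to 12 in a library, and the control IgG cells in the low and medium bins of replicate 1, with 8 and 16.

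Trends over the bins were tested two-sided with an exact permutation of the bin labels among the libraries of a treatment, on the log-odds of the share after adding 0.5 to both cell counts. Over this and the ratios to other cell types, 12 trends were adjusted together (Benjamini-Hochberg). The share of Cga-positive cells among all barcodes gave no called trend. The slope per bin was 0.605 for ATV-TfR (exact permutation p = 0.0444, adjusted p = 0.122), 0.255 for ATV-CD98hc (exact permutation p = 0.570, adjusted p = 0.570) and 0.837 for control IgG (exact permutation p = 0.314, adjusted p = 0.419). In control IgG the added 0.5 cells set the log-odds of libraries without such cells by their size: -6.96 and -7.28 in the small high libraries against -10.1 in the negative library. The control IgG slope thus moves with library size as well as with the cells. Endothelial-marker barcodes made up 186 of 8988 passing barcodes in ATV-TfR negative replicate 1 and 18644 of 19551 in high replicate 1, and a share of all barcodes moves against them. Barcodes with at least 3 UMIs of Cldn5 plus Flt1, whatever their Cga, were then left out of the denominator. Cga-positive cells were kept even where they held Cldn5 and Flt1 UMIs. Keeping such cells raises the share in the ATV libraries that held them, and slopes without them were not computed for this denominator. With it the ATV-TfR slope was 1.58 (exact permutation p = 0.0103, adjusted p = 0.0413), that of ATV-CD98hc 1.33 (exact permutation p = 0.0254, adjusted p = 0.0610) and that of control IgG 0.614 (exact permutation p = 0.460, adjusted p = 0.460). With the share in percent and nothing added, the ATV-TfR slope was 0.0119 percentage points per bin (adjusted p = 0.0413, exact permutation).

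Ratios to a named cell type in the same library do not depend on the number of barcodes of other types. They still move with the count of the named type. In a library without Cga-positive cells that count alone sets the ratio, because a fixed fraction of a cell was added to both counts. Choroid plexus epithelial cells (at least 2 of Folr1, Clic6, Kl and Kcnj13), neurons (at least 3 of Snap25, Syt1, Rbfox3, Tubb3, Stmn2 and Meg3) and endothelial cells with at least 3 UMIs of Plvap, a component of fenestrated capillary walls, were counted in each library. The first and second of these also needed more UMIs of their genes than of the 6 genes. All 3 types needed under 3 UMIs of Cga. In ATV-TfR the ratio of Cga-positive to Plvap-high endothelial cells rose with the bin by 3.17 on the log2 scale per bin (exact permutation p = 0.00079, the smallest that 8 libraries allow, adjusted p = 0.0095). The 2 counts moved in opposite directions: Plvap-high cells numbered 48 and 26 in the negative, 20 and 22 in the low, 1 and 3 in the medium, and 1 and 0 in the high libraries. Cga-positive cells numbered 0 in the first 4 of these libraries, then 1, 2, 12 and 2. In those first 4 libraries the ratio thus followed the number of Plvap-high cells alone. In high replicate 2, with 0 Plvap-high cells, it rests on the added fraction of a cell. The rise of the ratio to Plvap-high cells was the 1 trend of the 12 that passed. Without either ATV-TfR pool its slope was 2.92 or 3.43, where 4 libraries allow no p below 0.0833.

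Against choroid plexus epithelial cells the ATV-TfR slope was 1.71 on the log2 scale per bin (exact permutation p = 0.0103, adjusted p = 0.0619). There were 182 and 35.7 Cga-positive cells per 1000 choroid plexus cells in the high libraries, against 6.29 and 11.1 in the medium ones. Among the cells without UMIs of the 6 genes it was 1.42 (exact permutation p = 0.0119, adjusted p = 0.0476) and with at least 1500 UMIs per barcode 1.70 (exact permutation p = 0.0111, adjusted p = 0.0444). Both settings gave a smaller slope and a larger unadjusted p, and only the adjustment over the 12 trends moved them past the threshold. Against neurons the ATV-TfR slope was 1.30 (exact permutation p = 0.0508, adjusted p = 0.122) and was called under no alternative. In ATV-CD98hc the slope against choroid plexus cells was 0.63 (exact permutation p = 0.413, adjusted p = 0.496) and that against Plvap-high cells 1.30 (exact permutation p = 0.135, adjusted p = 0.256). Against neurons the ATV-CD98hc slope was 1.64 (exact permutation p = 0.0183, adjusted p = 0.0730), against 1.36 among the cells without the 6 genes (exact permutation p = 0.0119, adjusted p = 0.0476) and 1.76 at 1500 UMIs (exact permutation p = 0.00714, adjusted p = 0.0429). Without ATV-CD98hc replicate 2, which held 11 of the 12 cells, the slopes were 0.31 against choroid plexus cells, 0.76 against Plvap-high cells and 0.96 against neurons (exact permutation p = 0.25 for the last), and the share slope was -0.0220. In control IgG the slopes were 0.66 against choroid plexus cells (exact permutation p = 0.459), 1.54 against neurons (exact permutation p = 0.178) and 1.79 against Plvap-high cells (exact permutation p = 0.149), with adjusted p from 0.256 to 0.5004. Both high control IgG libraries held 0 Cga-positive cells, 0 neurons and 0 Plvap-high cells, so their ratios to the last 2 were set by the added 0.5 alone, and these slopes rest partly on that. All 3 were below 0 without control IgG replicate 2, from -0.88 to -0.0903.

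On a scale from 0 (negative) to 3 (high), the mean bin of the Cga-positive cells was 1.67 in the only control IgG pool that had them. It was 2.92 and 2.50 in the ATV-TfR pools and 2.00 and 3.00 in the ATV-CD98hc pools, or 2.61 ± 0.46 over these (SD, n = 4). The value of 2.00 was that of a single cell, and the control pool had no negative library. With 1 control pool no test could pass (5 pools allow no p below 0.2), so the difference is a description.

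Within a pool, all Cga-positive cells that could be called were called as 1 sex, although each pool mixed a male and a female mouse. Xist, expressed from the inactive X chromosome of females, exceeded 4 Y-linked genes in all 13 cells of ATV-TfR replicate 1, all 4 of replicate 2, the 1 cell of ATV-CD98hc replicate 1 and all 24 of control IgG replicate 1. One of these 24 had 5 UMIs of Xist and 1 of the Y-linked genes, and no other of the 53 cells had both. In ATV-CD98hc replicate 2, 8 of 11 cells had UMIs of the Y-linked genes and none of Xist, and 3 had neither. Among all passing barcodes of these pools, 34.0% to 48.0% were female and 25.6% to 31.5% male by the same rule. The pool without any, control IgG replicate 2, had 43.9% female and 34.3% male barcodes.

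**Figure D3:**
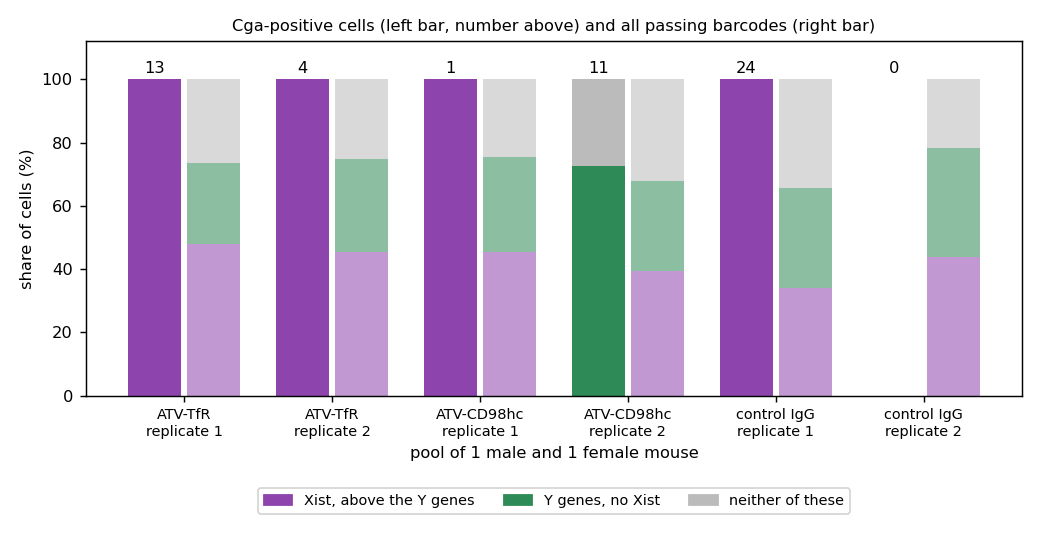
Share of cells (%) called female (Xist above the Y-linked genes), male (Y-linked genes, no Xist) or neither in each pool of 1 male and 1 female mouse, for the Cga-positive cells (left bars, their number above) and all passing barcodes (right, paler bars). The called cells of each pool are of 1 sex, with 3 of the 11 in ATV-CD98hc replicate 2 not called, while the barcodes of every pool hold both.

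Among the hormone genes, thyrotropin's beta subunit was the only one of the beta subunits found. UMIs of Cga itself ranged from 3 through a median of 32 to 765 per cell. Tshb had a UMI in 32 of 53 cells (0 at the lowest, 2 at the median, 117 at the highest) and at least 3 UMIs in 24. Of 71601 endothelial-marker barcodes in the same libraries, 0.00698% had a Tshb UMI at a median of 3543 UMIs per barcode, and 0.142% had one of Cga. These barcodes were defined with under 3 UMIs of Cga, which partly fixes the share with Cga. Lhb and Fshb (gonadotrophs), Gh (somatotrophs) and Prl (lactotrophs) had 0 UMIs in all 53 cells, which allows a share of cells with a UMI of up to 5.66%. Pomc, the hormone precursor of corticotrophs and melanotrophs, had a UMI in 7 cells (13.2%) and never 3. It had one in 16.5% of the endothelial-marker barcodes and in 4.06% of 887 microglia-marker barcodes of the same libraries. Among the 37 cells without UMIs of the 6 genes, 10.8% had a Pomc UMI. These shares lay between those of the other barcodes, and whether free RNA gave them was not tested. Cck, which encodes cholecystokinin, had a UMI in 45 cells, with a median of 9 and a highest value of 315, against 0.267% of the endothelial-marker barcodes.

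By treatment, Cga UMIs per cell were 3, 56 and 587 (lowest, median, highest) in the 17 ATV-TfR cells, 3, 17.5 and 247 in the 12 ATV-CD98hc cells, and 4, 35.5 and 765 in the 24 control IgG cells. Tshb was 0, 0 and 21 in ATV-TfR cells, 0, 1 and 73 in ATV-CD98hc cells and 0, 3.5 and 117 in control IgG cells. The lowest Cga values were bounded by the rule's minimum of 3 UMIs, and the highest values of both genes were in control IgG cells. Summed over the cells of a pool, Cga was 16522 and 17791 CPM (UMIs scaled to a total of 1000000) in the ATV-TfR pools, 21988 and 6453 in the ATV-CD98hc pools and 16421 in the control IgG pool. Tshb was 649, 279, 0 (1 cell), 1835 and 1971 CPM in the same order. Cck was 2705, 2428, 3275, 7462 and 6449 CPM. The called cells of ATV-CD98hc replicate 2 were male and those of the other pools female, so pool and sex cannot be told apart there. Without the cells that held UMIs of the 6 genes, 7 and 2 cells of the ATV-TfR pools, 4 of ATV-CD98hc replicate 2 and all 24 of control IgG remained. Among these, in that order, Cga was 19761, 26390, 12257 and 16421 CPM. Tshb was 299, 0, 3578 and 1971 CPM, and Cck 1844, 0, 15259 and 6449 CPM. A single cell held 247 of 298 Cga, 73 of 87 Tshb and 315 of 371 Cck UMIs of these 4 ATV-CD98hc cells, so their sums are largely its values. Single cells also held 587 of 793 Cga UMIs in ATV-TfR replicate 1 and 231 of 234 in replicate 2. Both of these had 0 UMIs of Tshb and Cck. The Cga sums of these ATV pools are thus largely the values of single cells. In the control IgG pool 1 cell held 765 of 2358 Cga UMIs and another held 117 of 283 Tshb UMIs. No library held 20 of the cells and only 1 pool did, so no test of expression between treatments or bins was run.

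**Figure D4:**
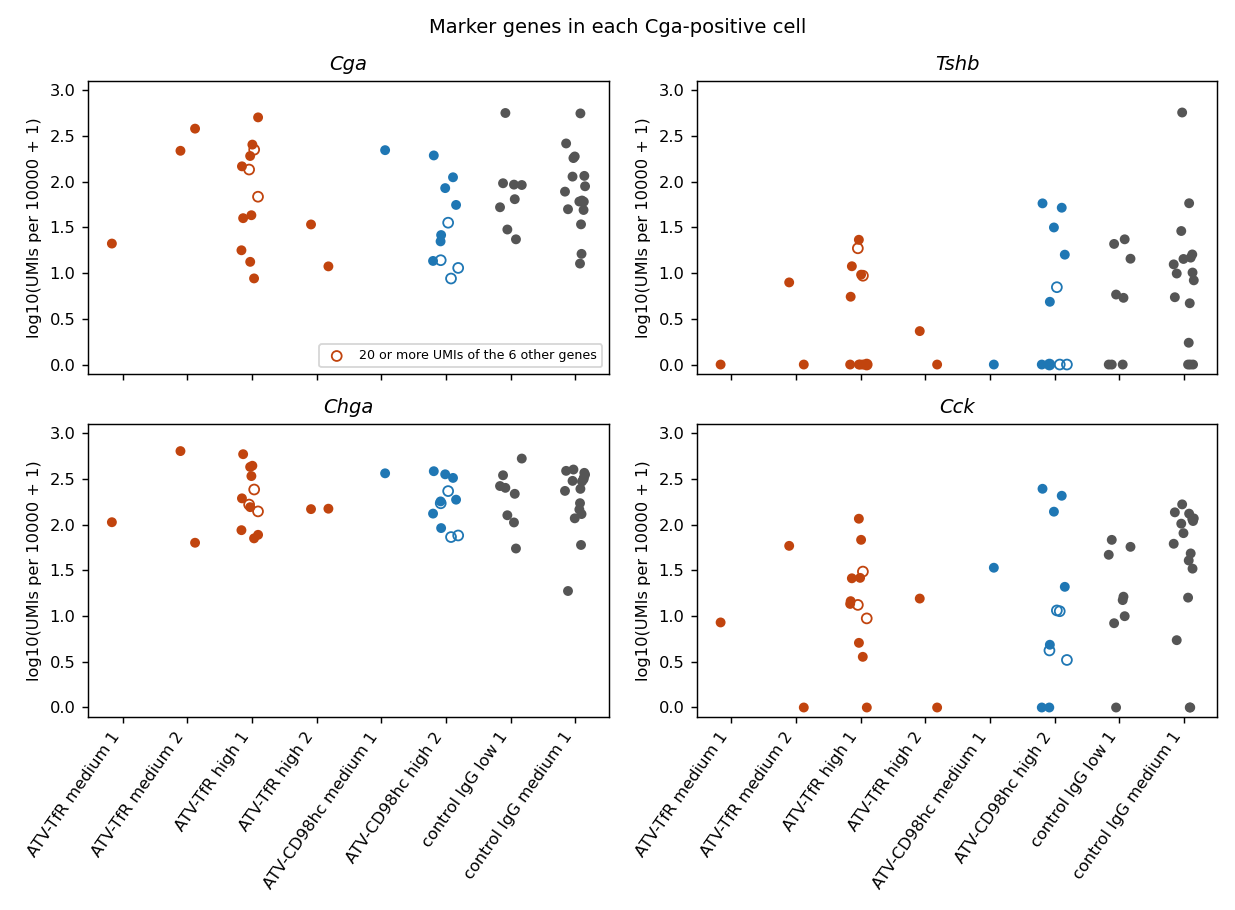
Cga, Tshb, Chga and Cck in each Cga-positive cell (log10 of UMIs per 10000 plus 1) in the 8 libraries that held such cells, coloured by treatment. Open circles are the 7 cells with 20 or more UMIs of the 6 genes of other cell types. In the libraries with 8 or more cells, the cells spread widely in each gene, and 2 libraries hold 1 cell each.

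Across the 53 cells, which share libraries, animals and a choice by these genes, Cga per 10000 UMIs had a Spearman rho of 0.54 with Cck, 0.50 with Chga and 0.45 with Tshb. With the mitochondrial share it was -0.52, and with the cell's total UMIs 0.43. In the 37 cells without UMIs of the 6 genes the values were 0.51, 0.39, 0.39, -0.58 and 0.51. The 32 cells with Tshb had a median of 6593 UMIs and the 21 without it 4774, so depth moved with its detection, and the part of depth was not tested.

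Granule cargo was present in nearly every cell, which the rule partly fixed. Chga had 4, 115 and 552 UMIs (lowest, median, highest) and Chgb 2, 38 and 290, each with a UMI in all 53 cells. Resp18, a granule protein of endocrine cells, was in 50 cells and Scg2 in 49, and these were used by the rule. Of the 15 granule genes listed, 9 had a UMI and 8 had one in at least 25% of the cells. The list includes Chga, Chgb, Resp18 and Scg2, so these counts are partly fixed by the choice of cells. Not used by the rule were Scg5, the chaperone of a prohormone convertase, at 1352 CPM in 46 cells against 30.3 in all other passing barcodes, and Pcsk1n at 946 CPM against 72.1. Vgf, Sst, Tac1, Npy, Adcyap1 and Gal had 0 UMIs. As a background over the 28271 genes with a UMI in any passing barcode, 13874 had a UMI in the 53 cells, 4107 had one in at least 25% of them, and 1003 stood over 10 times above the other barcodes.

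The enzymes and the release machinery for peptide hormones were partly present. Of 9 genes of prohormone processing, 8 had a UMI and 4 reached 25% of the cells. Pcsk1, the convertase of the regulated pathway, stood at 77.6 CPM (17 cells) against 0.23 in other barcodes, while Pcsk2 had 3 UMIs. Cpe, a carboxypeptidase that trims hormone precursors, was at 486 CPM against 886 elsewhere. Of 24 genes of regulated exocytosis, 21 had a UMI, 16 reached 25% of the cells and 9 exceeded other barcodes by over 10 times. Their median was 99.97 CPM against 12.8 in the other barcodes, beside medians of 0 and 1.84 over all genes. Rab3b, a small GTPase of secretory granules, was at 498 CPM against 2.10, Ptprn, a protein of the granule membrane, at 492 against 2.52, and Cadps2, which primes granules for release, at 439 against 8.91.

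Several transcription factors of the pituitary lineage were found, and several of those known from single other hormone lineages were at 0. Pitx1, which acts early in pituitary development and on Cga, had a UMI in 49 cells and stood at 1313 CPM (95% Poisson interval 1193 to 1442) against 0.126 in other barcodes. It was 606 and 836 CPM in the ATV-TfR pools, 819 and 963 in the ATV-CD98hc pools and 2040.5 in the control IgG pool. In the cells without UMIs of the 6 genes Pitx1 was 623 and 677 CPM in the ATV-TfR pools and 1851 CPM (1350 to 2477) in ATV-CD98hc replicate 2, whose interval overlaps that of the control IgG pool (1814 to 2288). Isl1, a LIM homeodomain factor, was at 239 CPM in 36 cells and Lhx3, another such factor, at 71.6 CPM in 17. Gata2, which acts on Tshb in thyrotrophs, was at 316 CPM in 35 cells, against 67.3 in other barcodes and 152 in endothelial-marker barcodes. Insm1, a factor of endocrine cells, was at 140 CPM. Pou1f1, Nr5a1 (gonadotrophs), Tbx19 (corticotrophs), Pax7 (melanotrophs), Hesx1 and Lhx4 had 0 UMIs, at a floor of 8.95 CPM. Foxl2, a factor of gonadotrophs and thyrotrophs, was at 113 CPM in 20 cells against 30.8 in other barcodes, and Neurod1, a factor of corticotrophs among other cells, had 4 UMIs in 3 cells. Of the 29 factors listed, 22 had a UMI and 12 reached 25% of the cells.

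Few of the listed receptors were found, and the thyrotroph and pars tuberalis markers that the rule did not use varied. Of 23 receptors for hypothalamic and other signals, 6 had a UMI. Mtnr1a, the melatonin receptor, had 58 UMIs in 22 cells, or 173 CPM (131 to 224) against 0.0154 in other barcodes. It was 162 and 79.6 CPM in the ATV-TfR pools, 0 (1 cell) and 398 in the ATV-CD98hc pools and 104 in the control IgG pool. Without the cells that held UMIs of the 6 genes Mtnr1a was 224 and 0 CPM in the ATV-TfR pools and 247 in ATV-CD98hc replicate 2. Tshr, the thyrotropin receptor, was at 364 CPM in 39 cells against 1.04. Trhr, Ghrhr, Crhr1, Drd2 and the somatostatin receptors Sstr1, Sstr2 and Sstr5 had 0 UMIs, and Gnrhr had 1. Of the 12 genes listed for thyrotrophs and the pars tuberalis, 10 had a UMI and 8 reached 25% of the cells, with Trhr and Pou1f1 at 0. The list holds 4 genes by which the cells were chosen (Cga, Tshb, Cck and Chga), so these counts are partly fixed. Of its other genes, Mtnr1a, Eya3, Timeless and Gata2 reached 25% of the cells. Over all 28271 genes, 13874 had a UMI and 4107 reached 25%. Sox14 was found in 13 cells at 38.8 CPM against 0.01 elsewhere, and Eya3, a coactivator that drives Tshb in long days, in 26 cells at 101 CPM against 38.8. No gonadotroph gene other than Foxl2 (20 cells, 113 CPM) reached 25% of the cells, and all 5 somatotroph and lactotroph genes had 0 UMIs.

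Genes of the thyroid hormone axis and of the clock were measured beside these. Thrb, a thyroid hormone receptor that mediates feedback on the pituitary, was at 233 CPM in 34 cells against 141 in other barcodes, and Thra at 134 CPM in 26 cells against 204. Rxrg, a partner of these receptors, was at 113 CPM in 19 cells against 1.13 in other barcodes. Dio1, Dio2 and Dio3, the deiodinases that convert thyroid hormone, had 0 UMIs. All 20 clock genes listed had a UMI and 13 reached 25% of the cells. Rorb, a nuclear receptor tied to the clock, was in all 53 cells at 2626 CPM against 401, and between 1880.3 and 4299 CPM in every pool (1880.3 to 3825 without the cells that held UMIs of the 6 genes). Timeless was at 657 CPM in 42 cells against 12.8, and Hlf, a factor whose level follows the clock in many tissues, at 880 CPM against 86.2. Per1, Per2 and Cry1 stood at 23.9, 14.9 and 20.9 CPM, near the 26.6, 20.8 and 21.95 of other barcodes.

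The 30 genes with the largest ratio to other passing barcodes were drawn from genes found in at least 25% of the cells. They are grouped here by known role, with no test of any theme. All 7 rule genes were among them, as were Pitx1, Isl1, Lhx3 and Mtnr1a. Epithelial genes were Epcam, an adhesion molecule (677 CPM, 42 cells), the tight junction genes Cldn7 (185 CPM, 29 cells) and Cldn9 (391 CPM, 30 cells), and Rab25, a GTPase of epithelial recycling endosomes (98.5 CPM). Apoc3 (2384 CPM, 40 cells) and Apoa4 (101 CPM, 17 cells) encode apolipoproteins best known from liver and gut, and Ces1d (1635 CPM, 44 cells) encodes a carboxylesterase. Apoc3 was at 1.14 CPM, Apoa4 at 0.00904 and Ces1d at 0.392 in the other barcodes. Ion channel genes were Kcnk9 (310 CPM), a potassium leak channel, Trpc5 (519 CPM), a cation channel, and Kcnmb2 (278 CPM), a subunit of calcium-activated potassium channels. Others were Pnoc (prepronociceptin), Ecel1, Nell1 (716 CPM, 50 cells), H2-Q2, Gm281, Gm48893, Mindy4b-ps and Gm48606. H2-Q2 belongs to a family of near-identical class I histocompatibility genes, so its reads are uncertain.

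**Figure D5:**
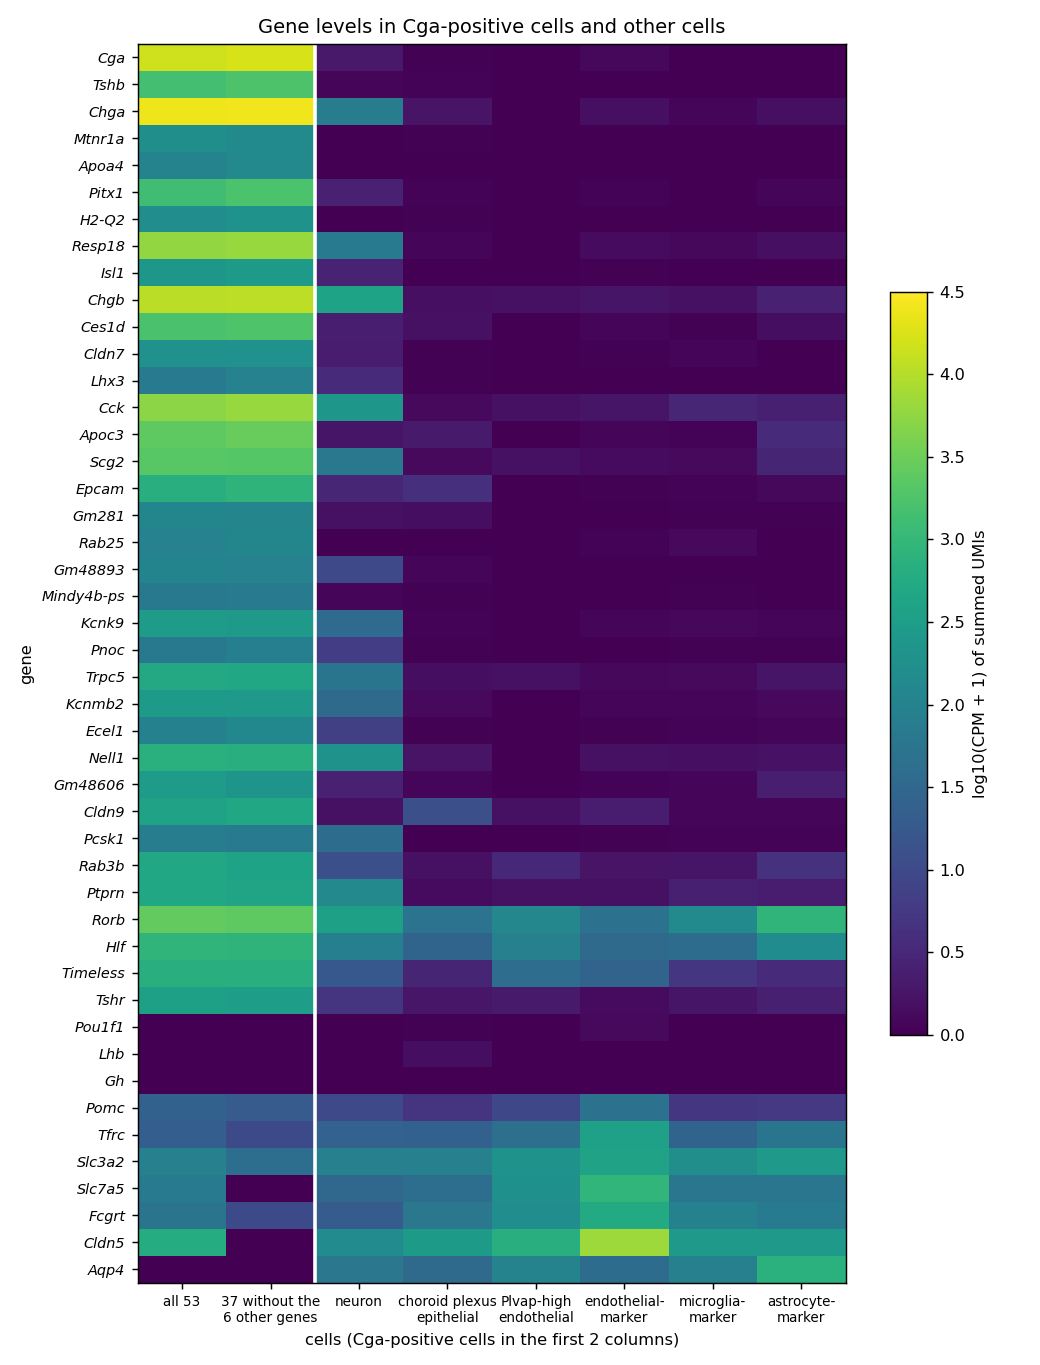
Levels of 29 of the 30 genes with the largest ratio to other barcodes and 17 further genes, as log10 of CPM plus 1 (colour) of UMIs summed over all 53 Cga-positive cells, the 37 without UMIs of the 6 other genes, and 6 sets of other cells. Cga, Tshb, Pitx1 and Mtnr1a are dark outside the first 2 columns, granins, Cck, Resp18 and Ptprn are also seen in neurons, and Slc7a5 and Cldn5 are dark in the 37 cells.

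The receptors bound by the antibodies were lower in the Cga-positive cells than in endothelial-marker barcodes and, over all 53 cells, near the levels of neurons and choroid plexus epithelial cells. Their UMIs lay largely in the cells that also held endothelial RNA. Tfrc had 7 UMIs in 6 of the 53 cells, 20.9 CPM (95% Poisson interval 8.40 to 43.0). In the 37 cells without UMIs of the 6 genes it had 2, both in control IgG cells, or 9.22 CPM (1.12 to 33.3). Endothelial-marker barcodes had 381 CPM, neurons 24.8 and choroid plexus epithelial cells 24.3. The 37 cells were chosen with 0 UMIs of Flt1, while neurons had it at 78.2 CPM and choroid plexus epithelial cells at 194 CPM. Values of the 37 are thus set against cells that were not freed of endothelial RNA. Without the 7 cells that held 20 or more UMIs of the 6 genes, Tfrc was at 7.20 CPM. Slc3a2 had 30 UMIs, 89.5 CPM (60.4 to 128), and 9 UMIs or 41.5 CPM (19.0 to 78.8) in the 37 cells, against 394 in endothelial-marker barcodes, 92.0 in neurons and 89.2 in choroid plexus epithelial cells. Slc3a2 was at 46.8 CPM without the 7 cells.

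By treatment, Tfrc had 1 UMI in the 17 ATV-TfR cells, 4 in the 12 ATV-CD98hc cells and 2 in the 24 control IgG cells. Slc3a2 had 14, 7 and 9. Among the cells without UMIs of the 6 genes, the 9 of ATV-TfR and the 4 of ATV-CD98hc had 0 UMIs of both, which allows up to 61.2 and 123 CPM for each gene. The 24 control IgG cells, all without the 6 genes, had Tfrc at 13.9 CPM (1.69 to 50.3) and Slc3a2 at 62.7 CPM (28.7 to 119). The intervals overlap the limits of the ATV cells, so no difference between treatments was detectable at this depth. In endothelial-marker barcodes Tfrc was at 206, 486 and 485 CPM in ATV-TfR, ATV-CD98hc and control IgG and Slc3a2 at 589, 254 and 471. Each was lowest under the antibody that binds it, and whether the knock-in alleles are counted like the mouse alleles was not tested.

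Other genes of antibody handling varied in level in the cells without the 6 genes. These cells were chosen without UMIs of Cldn5 and Flt1 and the sets of other cells were not. The choice thus favours low values of endothelial genes in the 37. Slc7a5, the transporter that pairs with CD98hc, had 25 UMIs in 7 of the 53 cells and 0 in the 37, which allows up to 13.8 CPM, against 922 in endothelial-marker barcodes, 41.3 in choroid plexus epithelial cells and 32.3 in neurons. Fcgrt, the neonatal Fc receptor that recycles IgG, had 18 UMIs in all cells (53.7 CPM) and 2 in the 37 (9.22 CPM, 1.12 to 33.3), against 565 in endothelial-marker barcodes, 60.9 in choroid plexus epithelial cells and 19.5 in neurons, the last of which lies within the interval of the 37. The Fc gamma receptors Fcgr1, Fcgr2b, Fcgr3 and Fcgr4, their adaptor Fcer1g, the mannose receptor Mrc1 and the endocytic receptors Cubn and Lrp2 had 0 UMIs in the 37 cells. Fcgr1, Fcgr2b, Fcgr4, Cubn and Lrp2 were also below the floor of 13.8 CPM in the other passing barcodes, at 13.5, 9.23, 1.07, 0.524 and 0.337 CPM, so a difference in them was not detectable at this depth. Present in the 37 were the ferritins Fth1 (1973 CPM against 2682 in other barcodes) and Ftl1 (825 against 757), which store iron, and clathrin heavy chain Cltc (184 against 210.4). Over the 33 genes listed, the median in the 37 cells was 4.61 CPM against 38.4 in all other passing barcodes, beside 0 and 1.84 over all genes. The 4.61 CPM lies below the floor of 13.8 CPM, and the other barcodes include endothelial cells and microglia.

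A few cells stood apart by their genes, which was seen in the values and not chosen in advance. Neuronatin (Nnat) had 192, 145 and 78 UMIs in 3 cells, 1 each of ATV-TfR high replicate 1, ATV-TfR medium replicate 2 and control IgG low replicate 1, and at most 34 in the other 50. These 3 had 587, 231 and 79 UMIs of Cga, none of Tshb and 0, 0 and 12 of Cck. Gnas, which encodes the stimulatory G protein alpha subunit, had 206, 131 and 54 UMIs in them, against a median of 5 and a highest value of 78 in the others. Ly6h had 35, 23 and 37 UMIs there and a UMI in only 12 of the other 50. Ces1d was at 0 in all 3, against a UMI in 44 of the other 50. Mtnr1a, Tshr and Tshb were also at 0 in the 3, against a UMI in 22, 39 and 32 of the other 50. Pitx1 (6, 5 and 16 UMIs), Isl1 (4, 2 and 4) and Epcam (14, 6 and 5) were present in them. Of the gonadotroph genes, Foxl2 had 4, 0 and 3 UMIs there (265 CPM, against 100.4 in the other 50), while Lhb and Fshb were at 0 as in all 53 cells. None of the 3 had a UMI of the 6 genes of other cells.

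Markers of neighbouring cell types varied among the lists. Of 8 tanycyte genes, tanycytes being the glia that line the ventricle above the pars tuberalis, Nnat and Vcan reached 25% of the cells, while Dio2, Crym, Frzb and Adm were at 0. The neuron list had 6 of 10 genes with a UMI, among them Snap25 (242 CPM), which endocrine cells also use for release. Of 6 pituitary stem cell genes, 5 were at 0 and Sox2 had 5 UMIs in 3 cells. All 6 fibroblast genes had a UMI, but all in 1 cell of control IgG medium replicate 1, at 49.0 per 10000 of its 13670 UMIs, and every other Cga-positive cell had 0. Of the microglia markers 8 of 10 had a UMI and of the border macrophage markers 5 of 6. Of these, C1qa, C1qb, Mrc1 and Pf4 had theirs in the 1 ATV-TfR cell described above. All 6 blood cell genes were at 0.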

How the data were processed

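Droplet single-cell RNA-seq of sorted mouse brain cells was taken as deposited: whole-number UMI counts per gene and barcode, not normalized by the authors (32285 genes, 1129743851 UMIs). The deposited barcode, gene and library lists (unit: other) gave names only. The submitters' processing notes name Cell Ranger 7.1.0, Seurat 4 and 5, mm10 and GRCm38. How barcodes were called as cells is not given in the sources used here.

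CPM were computed here from UMIs summed over cells. Gene positions came from GENCODE M21, promoter windows from RefSeq. The proteins of Cga, Tshb and Cck named in the plan were not used here. Doublets were called per library with Scrublet (scanpy 1.11.5), with percentile 94 of the score in 8 libraries whose own threshold marked under 0.5% or over 25%. It marked 0.690% to 12.2% of a library and was used as an alternative only. Trends were tested on the library as the unit. The test was first run on simulated shares far above those of the ATV libraries, so that run did not cover libraries with few or no Cga-positive cells. The planned count-model tests of expression were not run, because they needed 20 cells per library or pool. Replicates are pools, and the bins of a pool share animals per the labels. Named genes were Tfrc, Slc3a2, the genes of the lists and the 30 with the largest ratio. The members and lists were chosen with earlier results of these data known. One listed gene, Ddit3, could not be matched. Some listed genes are not reported here. Alternatives varied the Cga minimum (2 or 6), depth, mitochondrial limit (20%), doublets, UMIs of the 6 genes, denominator, replicate block and each pool.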

Additional observations from a re-analysis of the deposited data

Results flagged for a closer look

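Beyond the 53 Cga-positive cells, 12 barcodes of the low, medium and high bins met the gene conditions but held more mitochondrial RNA than the limit of 10% allows, and the negative bins held 0. They were 2 of control IgG low replicate 1, 6 of medium replicate 1, 1 of high replicate 1, 1 of ATV-TfR high replicate 2 and 2 of ATV-CD98hc high replicate 2. All were thus in pools that also held Cga-positive cells within the limit. The control IgG high barcode had 7 UMIs of Cga and 45 of Chga among 3140, at 11.8% mitochondrial UMIs. It is the only barcode of the high control IgG bin that met the gene conditions. Tshb was low in these barcodes, with 5 UMIs at most.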

How the results depend on the processing

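The 12 trends over bins were recomputed under settings other than leaving out a pool, 10 for each share trend and 7 for each ratio. This gave 93 recomputed slopes. In 87 of the 93 the direction and the side of the threshold stayed, in 0 the direction reversed and in 6 a trend became called. The 6 were the ATV-TfR share without endothelial-marker barcodes (1.58) and in percent with nothing added (0.0119), the ATV-TfR ratio to choroid plexus cells without UMIs of the 6 genes (1.42) and at 1500 UMIs (1.70), and the ATV-CD98hc ratio to neurons under the same settings (1.36 and 1.76). For the ratio to choroid plexus cells the unadjusted p was no smaller than as reported, and the adjusted p fell with the other trends. For the rest the cause was not tested. The share without endothelial-marker barcodes kept all Cga-positive cells, also those with Cldn5 and Flt1 UMIs.

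With the replicate block, which permutes bins within a pool, since 1 pool of animals gave all its bins, no call changed. The called ATV-TfR ratio to Plvap-high cells kept 3.17 (adjusted p = 0.0417, exact permutation), and over its 7 alternatives other than leaving out a pool the adjusted p was 0.0095 to 0.0417.

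Leaving out a pool left that ratio at 2.92 to 3.43, with too few libraries for a call. The ATV-CD98hc share ran from -0.0220 (without replicate 2) to 0.532. In control IgG the share ran from -0.693 to 1.00, and the ratios to choroid plexus cells from -0.192 to 0.45, to neurons from -0.88 to 1.95 and to Plvap-high cells from -0.0903 to 1.88, each lowest without replicate 2, where the control IgG negative bin is also lost. The number of Cga-positive cells was 29 without control IgG replicate 1 and 53 without replicate 2.

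Depth limits genes at 0 UMIs to under 8.95 CPM in all 53 cells. The expression tests and their alternatives were not run, since 0 libraries and 1 pool held 20 cells, and at 10 cells 3 pools remained, 1 per treatment.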

Other observations

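Other groups of genes described the Cga-positive cells beyond their hormones. Of 23 genes of secreted signals, 19 had a UMI and 4 reached 25% of the cells, as did 4107 of the 28271 genes in all, and their median was 11.9 CPM against 34.1 in other passing barcodes. Igfbp5, a binding protein of insulin-like growth factors, was at 1352 CPM in 48 of 53 cells against 51.6 in other passing barcodes, and at 1088 CPM in the 37 cells without UMIs of the 6 genes. Of 21 genes of the unfolded protein response, 15 reached 25% of the cells, with a median of 86.5 CPM against 88.0 in the other barcodes. For 20 genes of lysosomes and endosomes the medians were 110.4 and 121 CPM. Of 17 immediate early genes, 3 reached 25% of the cells, with medians of 17.9 and 15.1 CPM. The last 3 pairs of medians lay close to each other, and they are descriptions with no test.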
